A study of Gallus gallus with 24 samples.

Results

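The genes described here drive DNA replication and cell division, and were followed in the jejunum, the middle stretch of the small intestine, of 24 chickens. They were taken by name from a list of 41 cell cycle and proliferation genes, of which 37 stand in the deposited table of 15618 genes. MKI67, PLK4, KIF20A and TYMS are not in it under those names and were not analysed here. All 37 members passed the filter on low values, which kept the 13279 genes that reached 0.5 TPM in 6 or more birds. TPM is a relative transcript abundance that allows for transcript length, so levels can be set side by side between genes. Between libraries it also moves with the composition of each library.

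The birds came from a pair of lines, HAS and LAS, bred in opposite directions for the antibodies they make against SRBC, the red blood cells of sheep, which serve as an antigen. HASI are HAS birds injected with SRBC, HASN are HAS birds that were not injected, LASI are injected LAS birds and LASN are LAS birds that were not injected. Each group holds 6 birds with 1 library each, and the labels give day 5 after injection for every bird. Age, sex, dose and the route of injection are not stated in the labels. The study compared injected with uninjected birds within each line, and the lines with each other.

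In a dividing cell, licensing factors load the MCM helicase onto replication origins, nucleotide and polymerase factors copy the DNA, and cyclins bound to CDK1 then carry the cell into mitosis. FOXM1 and the E2F factors switch on these genes in turn, and kinesins, kinetochore proteins and condensins separate the chromosomes before the cell is cut apart. In the small intestine most division takes place in the crypts, whose stem cells and their daughters renew the epithelium, while lymphocytes in the gut wall can also divide. In bulk tissue, fewer dividing cells and less RNA of these genes per dividing cell cannot be told apart.

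Libraries differed in ways that go with the groups. The 13 tested enterocyte markers, checked because the samples are labelled as jejunum, summed to between 30013 and 70358 TPM in every bird. The mitochondrially encoded share of all TPM was 21.4% to 38.0% in HASI, 11.004% to 23.4% in HASN, 15.8% to 26.7% in LASI and 9.54% to 18.2% in LASN. A span slope was fitted in each library, that of log2(TPM + 1) against the log2 length of a gene on the chromosome, and is more negative where long genes are less abundant. It was -0.22 to -0.10 in HASI, -0.28 to 0.01 in HASN, -0.24 to -0.06 in LASI and -0.13 to 0.02 in LASN. Within HASN it was -0.28 to -0.22 in replicates 1 to 3 and -0.02 to 0.01 in replicates 4 to 6. The correlation of members with this slope is given after the comparisons within the lines, and its part in the results was not tested beyond a fit that holds it as a covariate.

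Levels spanned more than an order of magnitude between members. TK1, the thymidine kinase of S phase, averaged 91.7 TPM over the 24 birds, CDK1, the mitotic kinase, 84.6 TPM and PCNA, the sliding clamp of DNA polymerase, 78.3 TPM. E2F1, a transcription factor of S-phase genes, followed at 33.02 TPM, and the lowest was CCNE2, an E-type cyclin, at 2.43 TPM. The ranges of TK1, CDK1 and PCNA overlapped each other over the birds and none of them reached down into the range of E2F1, whose highest bird had 42.9 TPM. The members differed in how steady they were: the highest of the 24 birds had 1.76 times the TPM of the lowest for E2F1, and 12.1 times for ANLN, anillin of the cleavage furrow.

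**Figure D1:**
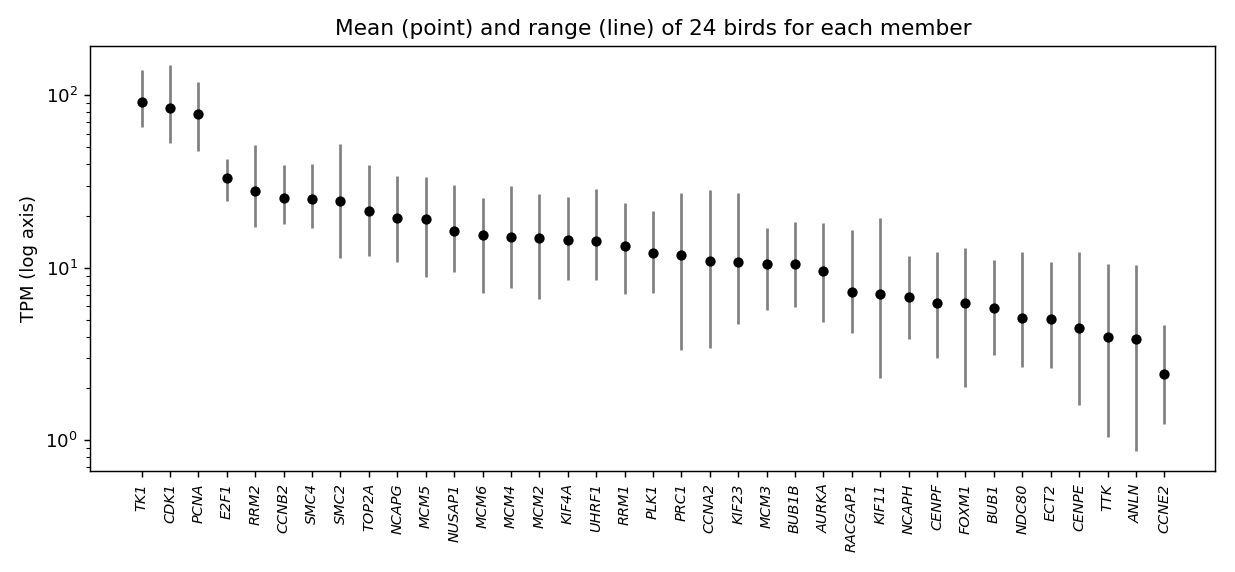
Mean TPM (points) and the range over the 24 birds (lines) for the 37 members, on a log axis and ordered by mean. TK1, CDK1 and PCNA stand above 78 TPM, the other members average between 2.43 and 33.02 TPM, and the longest lines belong to ANLN, TTK, KIF11, CCNA2 and PRC1.

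Members varied together from bird to bird within a group. Over deviations from group means in 24 birds, the correlation averaged 0.65 over pairs of members and 0.23 over pairs of all tested genes, and it was above 0 in 660 of the 666 member pairs. These are descriptions, since the genes share libraries and library composition. The closest pairs were CCNA2, cyclin A, with FOXM1 (r = 0.96) and KIF4A, a chromosome-bound kinesin, with TOP2A, the topoisomerase that untangles sister chromatids (r = 0.95). CDK1 with PRC1, the protein that bundles midzone microtubules, was the most negative pair at r = -0.15. CDK1 was also in the pairs with KIF11, TTK and ANLN that lay just below 0.

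HASN replicate 5 had the highest TPM of all 24 birds in 27 of the 37 members and lay above the mean in all 37. HASI replicate 3 was lowest of all in 12 members, HASN replicate 2 in 7, and both HASI replicate 3 and LASI replicate 3 lay above the mean in 0 members. Summed over the 37 members, the lowest, median and highest bird had 473, 636 and 936 TPM in HASI, against 560, 670 and 1113 TPM in HASN. The sums were 512, 664 and 951 TPM in LASI, against 527, 722 and 837 TPM in LASN. The groups overlapped broadly in this sum, in both lines.

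**Figure D2:**
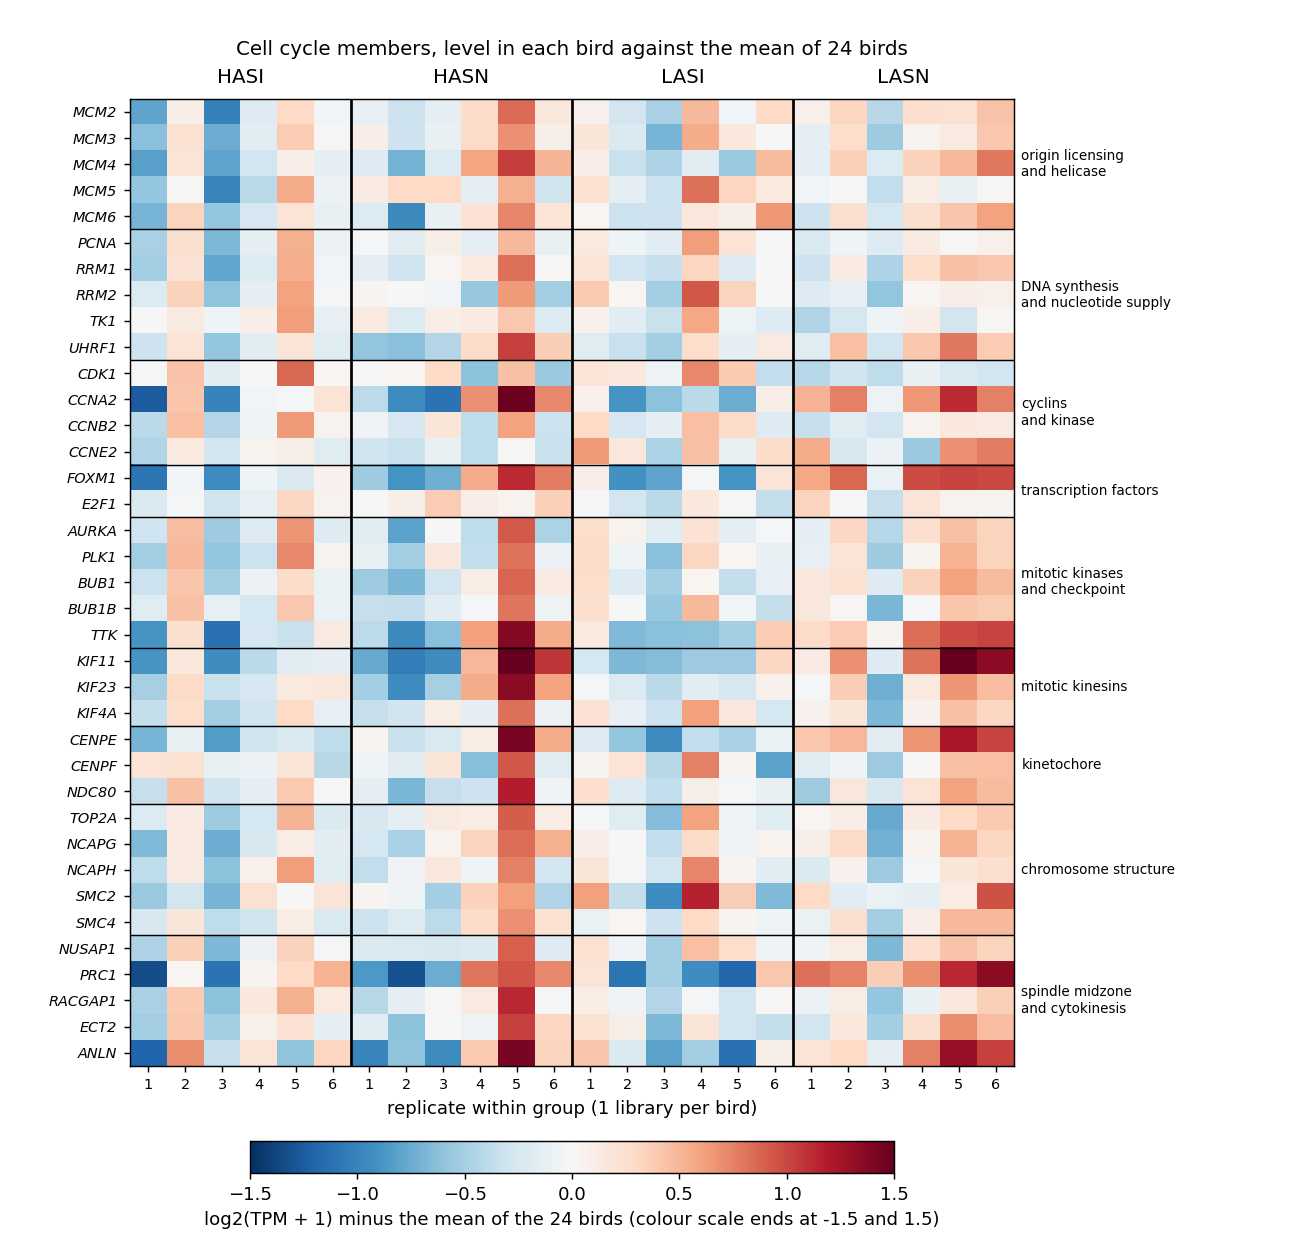
Each cell is log2(TPM + 1) of a member (rows, by role) in a bird (columns, by group and replicate) minus the mean of the 24 birds. The column of HASN replicate 5 is above the mean in all 37 rows, and CCNA2, FOXM1, TTK, KIF11, PRC1 and ANLN are lower in HASN replicates 1 to 3 than in replicates 4 to 6.

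Outside the members, 10148 other named genes that averaged 1 TPM or more were ranked by how closely they followed the mean of the members over the 24 birds, within groups. Among the closest were CENPQ (r = 0.96), TPX2 (0.95), ESPL1, NCAPD2, ORC1, CDC45, E2F8, CDC7 and KIF15 (0.92). All of those named but CENPQ, known as a centromere protein, are in a separate list of other cell cycle genes, and CENPQ is in none of the lists used. TPX2 is known for building spindle microtubules, ESPL1 is separase, which frees sister chromatids, and CDC45 is part of the replicative helicase.

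Injection in the LAS line went with lower levels of 6 of the 37 members: CENPE, PRC1, FOXM1, KIF11, CCNA2 and TTK fell, and 0 rose. These 6 make up 16.2% of the members, whereas 28.9% of all tested genes were called lower and 2.18% higher in the same comparison (limma, adjusted p below 0.05 over all genes). That is a smaller share than among genes at large, a difference that was not tested, and the members' median log2 fold change was -0.11 in LASI vs LASN, beside -0.33 for all genes. The other 31 members, among them the MCM helicase genes, PCNA, the condensins and most mitotic kinases, did not pass the test in LASI vs LASN. The p-values set a difference against the spread between birds within groups, pooled over all 4 groups, HASN included.

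Of the kinetochore genes, CENPE fell and neither CENPF nor NDC80 passed. CENPE (chr4:60990743-61026616, minus strand, galGal6) encodes the kinesin that carries chromosomes to the spindle equator. It was at 1.59, 2.71 and 3.64 TPM in the lowest, median and highest LASI bird, against 3.40, 6.43 and 10.6 TPM in LASN. Only LASI replicate 6 was above the lowest LASN bird, replicate 3, at 3.40 TPM. The log2 fold change was -1.05 ± 0.26 (SE, n = 6 each; limma, adjusted p = 0.0137). CENPE was at 1.77, 2.93 and 3.62 TPM in HASI, against 2.94, 4.24 and 12.3 TPM in HASN, where the log2 fold change of -0.69 ± 0.26 did not pass (limma, adjusted p = 0.211). The HASI and HASN birds overlapped between 2.94 and 3.62 TPM.

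Of the midzone and cytokinesis genes, PRC1 fell, and NUSAP1, RACGAP1, ECT2 and ANLN did not pass. PRC1 (chr10:20508515-20509940, plus strand, galGal6) has a gene model of 1426 bases in the table, the shortest of the 37. It was at 3.86, 5.69 and 13.5 TPM in LASI (lowest, median, highest bird), against 13.2, 17.8 and 27.0 TPM in LASN, and LASI replicate 6 was the single bird above the lowest of LASN. Its log2 fold change was -1.37 ± 0.41 (SE, n = 6 each; limma, adjusted p = 0.0212), the lowest value among the members. In the HAS line PRC1 was at 3.34, 10.3 and 14.7 TPM in HASI, against 3.42, 11.3 and 20.04 TPM in HASN, and nearly the whole HASI range lay inside that of HASN. ANLN, at a log2 fold change of -0.93 ± 0.39 in LASI vs LASN, missed the threshold (limma, adjusted p = 0.0687).

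Of the transcription factors, FOXM1 fell and E2F1 did not pass. FOXM1 (chr1:75332032-75341754, plus strand, galGal6), which activates genes of G2 phase and mitosis, was at 2.44, 4.03 and 6.36 TPM in LASI (lowest, median, highest bird), against 5.00, 11.2 and 11.95 TPM in LASN. All LASN birds but replicate 3 were above every LASI bird. The log2 fold change was -1.11 ± 0.34 (limma, adjusted p = 0.0232), and in HASI vs HASN it was -0.43 ± 0.34 (limma, adjusted p = 0.453). E2F1 (chr20:2177137-2180913, galGal6) was at 24.3, 29.4 and 36.4 TPM in LASI, against 25.5, 33.7 and 41.2 TPM in LASN, and at 26.3, 30.8 and 40.8 TPM in HASI, against 32.7, 34.9 and 42.9 TPM in HASN. Its groups overlapped in both lines.

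Of the spindle motors and checkpoint kinases, KIF11 and TTK fell. KIF11 (chr6:21687983-21704004, minus strand, galGal6), the motor that pushes spindle poles apart, was at 3.27, 3.65 and 7.41 TPM in LASI (lowest, median, highest bird), against 4.94, 10.4 and 19.0 TPM in LASN (log2 fold change -1.11 ± 0.40; limma, adjusted p = 0.0391). TTK (chr3:79204850-79232930, minus strand, galGal6), the kinase that starts the spindle checkpoint, was at 1.80, 2.002 and 4.79 TPM in LASI, against 3.60, 5.88 and 8.02 TPM in LASN (log2 fold change -0.91 ± 0.34; limma, adjusted p = 0.0453). For both genes LASI replicate 6 and LASN replicate 3 were the birds that reached furthest into the other group. KIF23 and KIF4A, and the kinases and checkpoint proteins AURKA, PLK1, BUB1 and BUB1B, had log2 fold changes below 0 in LASI vs LASN that did not pass.

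Of the cyclins and their kinase, cyclin A fell and CDK1 had a value above 0 that did not pass. CCNA2 (chr4:53933630-53938773, plus strand, galGal6) was at 4.72, 6.44 and 10.3 TPM in LASI (lowest, median, highest bird), against 8.99, 16.2 and 21.9 TPM in LASN, and fell by 1.03 ± 0.38 on the log2 scale (limma, adjusted p = 0.0427). CDK1 (chr6:9409873-9417895, minus strand, galGal6), a partner of cyclin A, was at 62.8, 92.2 and 135 TPM in LASI, against 60.4, 66.5 and 75.6 TPM in LASN (log2 fold change 0.46 ± 0.20; limma, adjusted p = 0.0788). All LASI birds but replicate 6 were above the highest LASN bird for CDK1. CDK1 was at 72.4, 82.3 and 150 TPM in HASI, against 52.9, 82.6 and 111 TPM in HASN, with wide overlap. CCNB2 and CCNE2, the B- and E-type cyclins, had log2 fold changes of 0.15 and -0.04 in LASI vs LASN that did not pass.

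**Figure D3:**
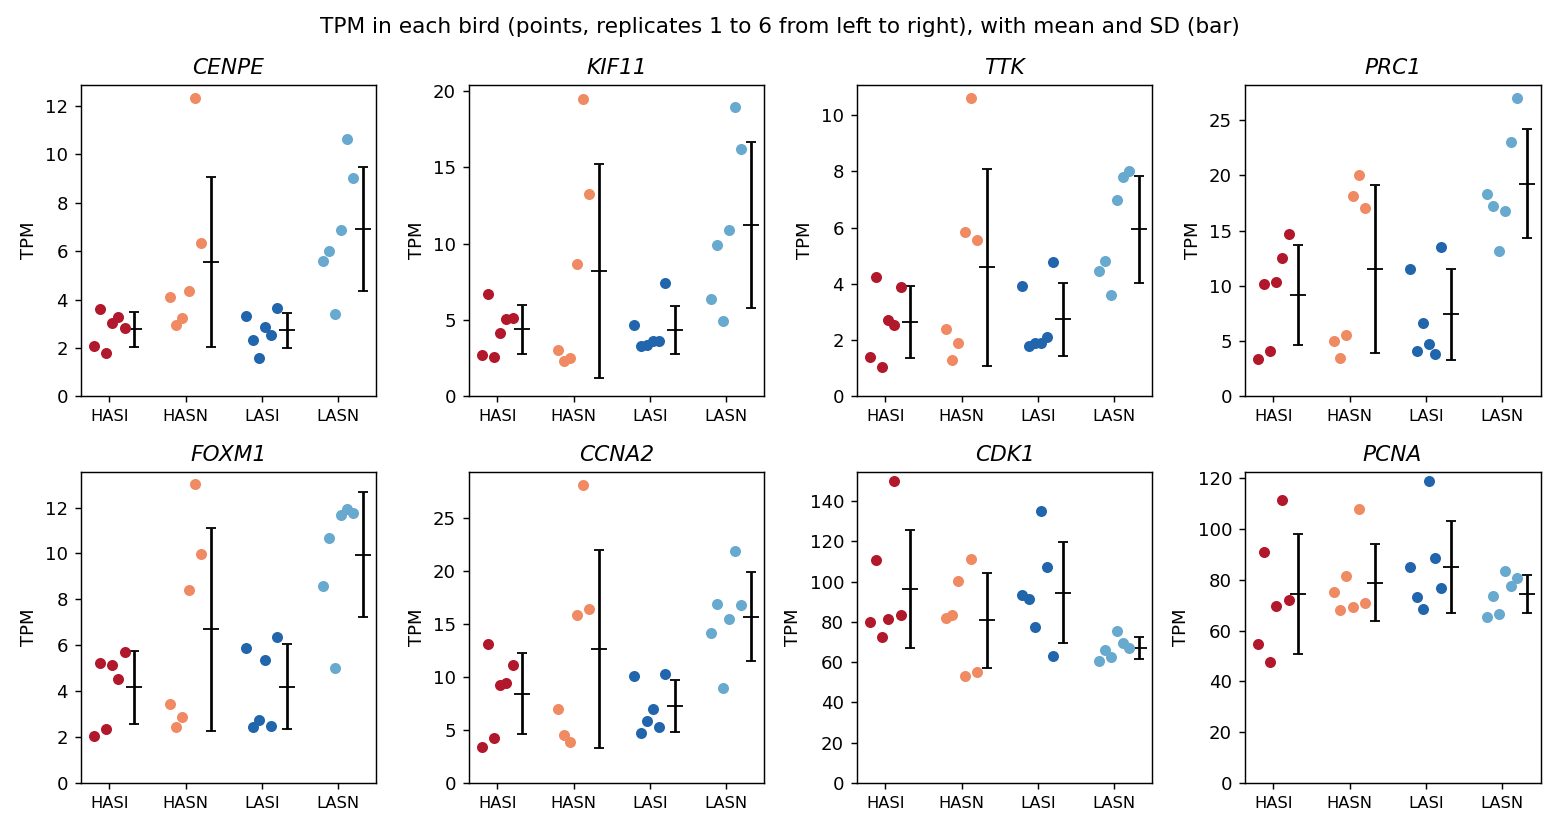
TPM in each of the 24 birds (points) with the group mean and SD (bars) for the 6 members that fell in LASI vs LASN, and for CDK1 and PCNA. LASI points lie mostly below LASN points for the first 6 genes and mostly above them for CDK1, and HASN points split into a low and a high set of 3 birds in KIF11, TTK, PRC1, FOXM1 and CCNA2.

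The ratio of CDK1 to CCNA2 TPM, chosen after these values were seen, sets them side by side in single birds. Its lowest, median and highest values were 6.08, 16.2 and 20.3 in LASI, against 3.18, 4.13 and 6.94 in LASN. They were 7.48, 12.3 and 23.2 in HASI, against 3.32, 7.81 and 25.7 in HASN. All LASI birds but replicate 6 exceeded every LASN bird, and the HAS groups overlapped. Uninjected HASN birds had ratios of 11.7 (replicate 1), 18.5 (replicate 2) and 25.7 (replicate 3), each inside or above the LASI range. The ratios of HASN replicates 4, 5 and 6 were 3.32, 3.96 and 3.35, all inside the LASN range. High values of the ratio were therefore not confined to injected birds.

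The genes of replication showed no call in LASI vs LASN. MCM4 (chr2:108001950-108013186, galGal6), the helicase subunit with the smallest p of its role, was at 9.28, 11.7 and 20.1 TPM in LASI (lowest, median, highest bird), against 12.1, 18.3 and 25.3 TPM in LASN. UHRF1 (chr28:4931452-4945091, galGal6), which keeps DNA methylation through replication, was at 9.23, 12.1 and 16.6 TPM in LASI, against 10.9, 18.1 and 24.2 TPM in LASN. PCNA (chr22:479245-482505, galGal6) was at 68.6, 80.8 and 119 TPM in LASI, against 65.2, 75.6 and 83.5 TPM in LASN. The birds of both groups overlapped in each of the 3. Their log2 fold changes were -0.43 ± 0.27, -0.39 ± 0.25 and 0.17 ± 0.17, and the intervals of 95% reached from -0.99 to 0.12 for MCM4, from -0.91 to 0.14 for UHRF1 and from -0.18 to 0.53 for PCNA.

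Chromosome structure genes were closer between LASI and LASN. TOP2A (chr27:7235585-7253739, galGal6) was at 12.8, 19.0 and 31.9 TPM in LASI (lowest, median, highest bird), against 11.8, 22.4 and 27.4 TPM in LASN, and at 13.9, 17.7 and 29.8 TPM in HASI, against 17.4, 22.4 and 39.7 TPM in HASN. NCAPG (chr4:75726455-75920712, galGal6), a condensin subunit, was at 14.2, 19.1 and 22.9 TPM in LASI, against 11.01, 21.6 and 27.3 TPM in LASN, and at 10.8, 16.2 and 20.7 TPM in HASI, against 13.1, 21.7 and 34.3 TPM in HASN. All of these ranges overlapped. The 5 genes of this role had log2 fold changes between -0.13 and 0.13 in LASI vs LASN. In HASI vs HASN all 5 were below 0, from -0.43 for NCAPG to -0.08 for NCAPH, and 0 passed.

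In the HAS line, 0 of the 37 members were called in HASI vs HASN (limma), beside 2% of all tested genes. An unadjusted p below 0.05 was found for 1 member, CENPE, beside 16.5% of all genes. The median log2 fold change of the members was -0.16, beside -0.26 for all genes, and 28 of the 37 were below 0. The lowest values after CENPE were TTK, KIF11 and MCM4, each near -0.46. In none of the 4 comparisons of a pair of groups were all 6 birds of one group below or above all 6 of the other for any member, while groups of all tested genes stood apart in this way in 1.93% for HASI vs HASN, 4.84% for LASI vs LASN, 1.21% for HASN vs LASN and 1.36% for HASI vs LASI.

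**Figure D4:**
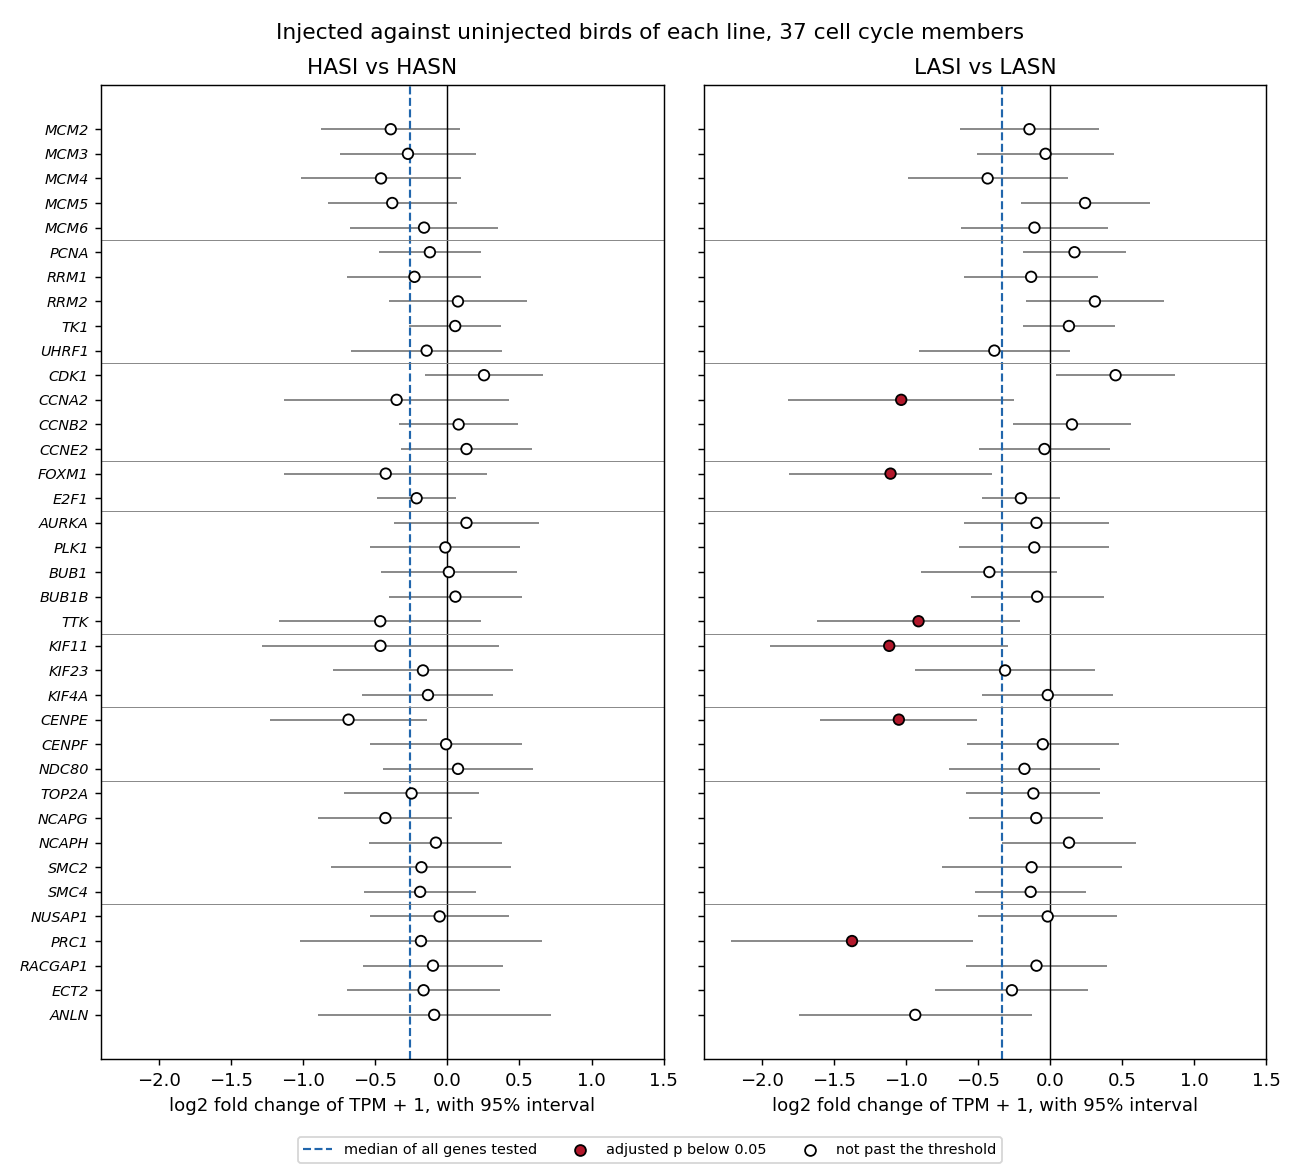
Log2 fold change of TPM + 1 with its 95% interval for each member, in HASI vs HASN (left) and LASI vs LASN (right). Filled points passed an adjusted p below 0.05, 0 on the left and 6 on the right, and the dashed lines are the medians of all tested genes at -0.26 and -0.33.

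Averaged over the lines, injection went with the same 6 genes being lower and with CDK1 being higher. That is 6 members called lower beside 38.8% of all tested genes, and 1 called higher beside 2.33%. CENPE had the smallest adjusted p of the members at a log2 fold change of -0.87 ± 0.19 (limma, adjusted p = 0.00318). FOXM1 stood at -0.77 ± 0.24, KIF11 at -0.79 ± 0.28, PRC1 at -0.78 ± 0.29, and TTK and CCNA2 at -0.69 each, with adjusted p-values of limma between 0.0181 and 0.0428. CDK1 rose by 0.35 ± 0.14 on the log2 scale (limma, adjusted p = 0.0470). MCM4 and E2F1, at -0.45 ± 0.19 and -0.21 ± 0.09, had adjusted p-values of 0.0621 and 0.0745 (limma).

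Several of these calls depended on single birds. The shares of all genes called in the fits with 1 bird left out are not given here, so these losses were not compared with genes at large. Without LASI replicate 2 or 5, or LASN replicate 5 or 6, CENPE alone was called in LASI vs LASN, and without LASI replicate 4, CENPE and FOXM1; without LASI replicate 3, or LASN replicate 2 or 4, CENPE, FOXM1 and PRC1 were. CENPE was called in LASI vs LASN with any single bird left out, at an adjusted p of 0.00564 to 0.0405 (limma). In the average over lines the members called came to 2 without HASI replicate 1 or HASN replicate 4 or 6 or LASN replicate 6, all of them CENPE and FOXM1, and to 3 or 4 without HASI replicate 3, HASN replicate 5, LASI replicate 2 or 5, or LASN replicate 5. CENPE and FOXM1 were called there with any single bird left out. CDK1 lost its call in the average in 14 of the 24 fits with 1 bird left out (limma, adjusted p of 0.0186 to 0.0915), and also without a filter on low values (limma, adjusted p = 0.0537). TTK lost its call in LASI vs LASN without that filter and with a pseudocount of 0.1 (limma, adjusted p = 0.0515 and 0.0522).

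The direction of part of the members changed with the scaling of the values. Rescaling by median ratios, with factors from 0.663 to 1.46, brought the median log2 fold change of all genes in LASI vs LASN to 0.03 and that of the members to 0.28. On that scale CENPE (-0.69), FOXM1 (-0.73) and PRC1 (-0.98) were still called lower, whereas CDK1 (0.88), RRM2 (0.73), PCNA (0.60) and TK1 (0.56) were called higher, 4 members higher and 3 lower in place of 0 and 6. Of all genes tested on that scale, 12.1% were called higher and 19.3% lower. In the average over lines the split was 5 higher and 2 lower, in place of 1 and 6: CCNB2, CDK1, PCNA, RRM2 and TK1 were higher, and CENPE and FOXM1 lower, beside 13.6% of all genes higher and 19.7% lower. RRM2 is the regulatory subunit of ribonucleotide reductase, which supplies deoxynucleotides.

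The members called lower were among those that followed the span slope of the library. Over the 24 birds the correlation of log2(TPM + 1) with the slope was above 0.8 for MCM4, PRC1, CCNA2, KIF11, FOXM1, TTK and ANLN, highest for KIF11 at 0.91, and it was 0.75 for CENPE, 0.73 for UHRF1 and 0.60 for NCAPG. It was below 0 for TK1, PCNA, RRM2, CCNB2, MCM5, CENPF and CDK1, lowest for CDK1 at -0.60. The median over the members was 0.41, beside 0.67 over all tested genes. The upper quartile was 0.73 over the members, beside 0.89 over all tested genes, so values above 0.8 were not particular to the members. The 6 genes span from 1426 bases (PRC1) to 35874 (CENPE), and the 37 members from 1426 to 194258 (NCAPG). LASI replicate 6 had the highest slope of its group, at -0.06, and LASN replicate 3 the lowest of its group, at -0.13. Other birds overlapped the other group too in some of the 6 genes, among them LASI replicate 4 in FOXM1, whose slope of -0.24 was the lowest of the LASI birds. Part of the members also went with the mitochondrially encoded share. Over the 24 birds its correlation with the 6 genes ran from -0.78 for TTK to -0.73 for PRC1, and was 0.35 for CDK1. It was 0.11 for TK1, 0.02 for CENPF and -0.03 for RRM2. The same correlation is not given for all tested genes, so the members were not compared with genes at large. Within groups the mean of the members had a correlation of -0.63 with that share and 0.55 with the slope. The part of that share in the results was not tested.

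**Figure D5:**
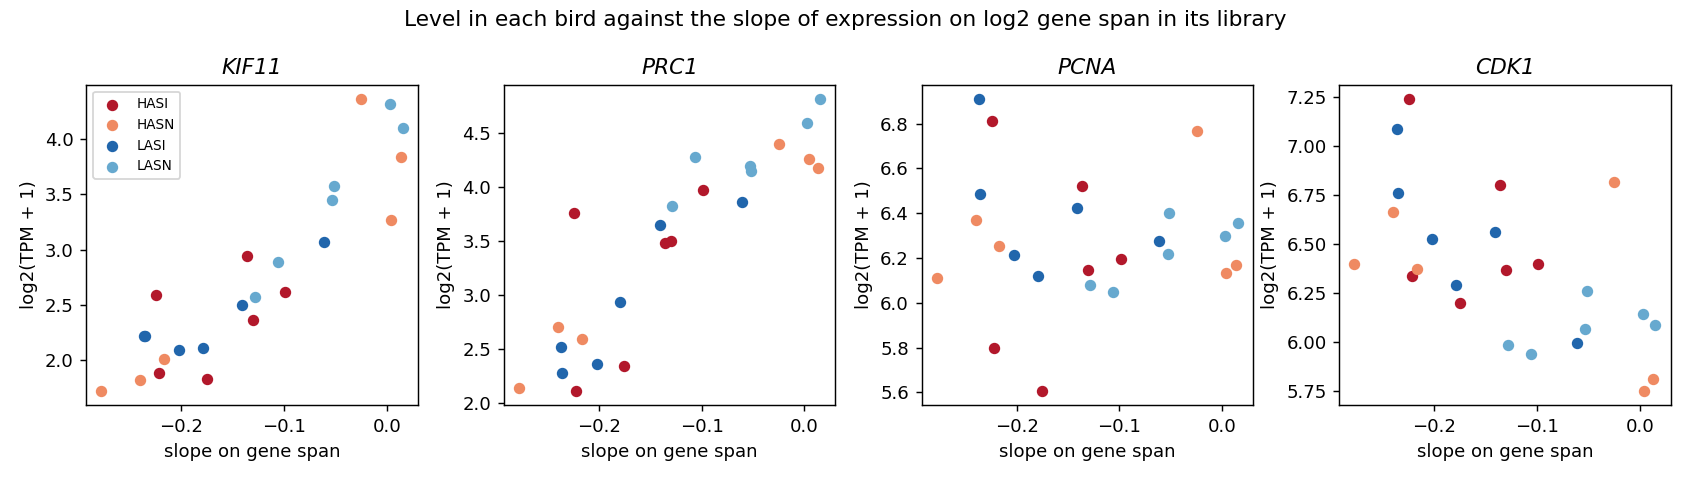
log2(TPM + 1) of KIF11, PRC1, PCNA and CDK1 in each bird (points, coloured by group) against the slope of log2(TPM + 1) on log2 gene span in its library. KIF11 and PRC1 climb with the slope (r = 0.91 and 0.89 over 24 birds), PCNA is flat (r = -0.02) and CDK1 descends (r = -0.60).

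With the slope as a covariate, 0 members were called in LASI vs LASN, where 774 of all genes were (5.83%). CENPE was then at -0.61 ± 0.23 (limma, adjusted p = 0.115), FOXM1 at -0.37 and PRC1 at -0.46. In the average over lines CENPE was the 1 member called with the covariate, at -0.57 ± 0.16 (limma, adjusted p = 0.0135). In that fit 15.2% of all genes were called lower and 2.06% higher. HASI vs HASN with the covariate had 0 members called, beside 11.3% of all genes. Over every setting tried for the average, the adjusted p of CENPE ran from 5.76e-05 to 0.0193. The slope is computed from the same values that it then adjusts.

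HASN birds stood apart from each other in the same genes. KIF11 was at 2.31 to 3.03 TPM in HASN replicates 1 to 3 and at 8.63 to 19.5 TPM in replicates 4 to 6, and PRC1 at 3.42 to 5.54 TPM and at 17.0 to 20.04 TPM. Of the 37 members, 16 had all of replicates 1 to 3 below all of replicates 4 to 6 and 0 had them all above, beside 59.8% and 9.43% of all tested genes. Fits without either set were added after the values were seen. Without HASN replicates 1 to 3, 12 members (32.4%) were called lower in HASI vs HASN, beside 53.9% of all tested genes, and without HASN replicates 4 to 6, 0 were, beside 1.85%. In HASN vs LASN 11 members (29.7%) were called lower without replicates 4 to 6, beside 50.2% of all genes. In the average injection effect 14 members were called lower without replicates 1 to 3, beside 60.5% of all genes, and 1 higher, beside 5.75%. Without replicates 4 to 6, 1 was called lower there, beside 5.99% of all genes. No label tells the sets apart, and the HAS comparisons with HASN depend on which birds are in the fit.

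Between the lines, 0 of the 37 members were called in HASN vs LASN (1.17% of all tested genes) and 0 in HASI vs LASI (0.542%), by limma. The lowest log2 fold change in HASN vs LASN was that of PRC1, at -0.93 ± 0.41 (limma, adjusted p = 0.388), the 1 member with an unadjusted p below 0.05, beside 11.7% of all genes. In HASI vs LASI 0 members had an unadjusted p below 0.05, beside 7.48% of all genes, and MCM5, a helicase subunit, had the lowest value at -0.42 ± 0.22. MCM5 was at 8.88, 15.6 and 27.9 TPM in HASI (lowest, median, highest bird), against 14.7, 21.3 and 33.7 TPM in LASI, with overlap. Averaged over injection, 0 members were called beside 2.60% of all genes, and CCNE2 was the 1 member with an unadjusted p below 0.05 (12.4% of all genes), at -0.35 ± 0.15 (limma, adjusted p = 0.344). Without HASN replicates 4 to 6 this average held 6 members (16.2%) called lower, beside 41.6% of all genes. That omission was chosen after the values were seen, so no line difference is read from it.

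Whether the lines differed in their response was asked with the interaction of line and injection, in which 0 of the 37 members and 0 of all tested genes were called (0% of all genes; limma), with an unadjusted p below 0.05 in 0 members and 4.56% of all genes. PRC1 had the highest member value at 1.19 ± 0.58 and MCM5 the lowest at -0.63 ± 0.31, both with an adjusted p of 0.750 (limma). The 6 calls in LASI vs LASN and the 0 calls in HASI vs HASN are therefore not shown to differ between the lines. Without HASN replicates 4 to 6, 9 members (24.3%) were called in the interaction with values above 0, beside 32.6% of all genes. The birds left out were chosen after the values were seen. They lay above HASN replicates 1 to 3 in 59.8% of all tested genes. That fit therefore cannot show a difference between the lines in their response.

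Other genes of the cell cycle, 98 of a list of 120, followed the members. In LASI vs LASN 14 of the 98 (14.3%) were called lower and 0 higher, beside 28.9% and 2.18% of all tested genes. In HASI vs HASN 0 were called, beside 2% of all genes, with 5 at an unadjusted p below 0.05, beside 16.5% of all genes. In the average over lines 20 (20.4%) were lower and 2 (2.04%) higher (limma), beside 38.8% and 2.33% of all genes. The median log2 fold change there was -0.16, beside -0.29 for all tested genes. The 6 with the smallest adjusted p in the average were DNMT1, the maintenance DNA methyltransferase (-0.85), E2F7, a repressor of E2F targets (-0.78), KIF14 (-0.65), LIN54 (-1.27), E2F3 (-1.004) and DLGAP5 (-0.71), all lower. LIN54 is the DNA-binding part of the DREAM complex, which acts on mitotic genes. The 2 called higher were CDCA3 (0.50) and PTTG2 (0.44). In the line effect averaged over injection, where 0 members were called, DBF4 was lower in HAS at -0.57 (limma, adjusted p = 0.0201). That is 1 of the 98 genes (1.02%) called lower, beside 1.88% of all tested genes. Within groups the mean of this list had a correlation of 0.98 with the mean of the members over 24 birds.

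A list of cell cycle brakes and G1 regulators had 18 of its 21 genes in the table. In LASI vs LASN BTG2, an antiproliferative factor (-0.87), and RBL1, a pocket protein that restrains E2F (-1.53), fell, and CCND3, a D-type cyclin (0.39), rose. That is 11.1% lower and 5.56% higher, beside 28.9% and 2.18% of all tested genes. In the average over lines BTG2, RBL1, RBL2 and RB1 fell, by 0.63, 1.12, 0.76 and 0.47 on the log2 scale, and 0 rose. The share that fell in the average was 22.2%, beside 38.8% of all tested genes, and the median of the 18 was -0.23, beside -0.29. In HASI vs HASN 0 were called, beside 2% of all genes, with 2 at an unadjusted p below 0.05, beside 16.5% of all genes (limma).

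Genes of crypt stem cells and Wnt signalling had a median log2 fold change of -0.80 in the average over lines, beside -0.29 for all tested genes. Of the 11 tested, 8 (72.7%) fell and 0 rose there, beside 38.8% and 2.33% of all tested genes. Among the 8 were LGR5, the R-spondin receptor that marks crypt stem cells (-1.44), OLFM4 (-1.77) and ASCL2, a stem cell transcription factor (-0.80; limma, adjusted p = 0.000636). In LASI vs LASN 5 of the 11 (45.5%) fell, beside 28.9% of all genes. In HASI vs HASN ASCL2 alone fell (9.09%), beside 1.75% of all genes. These differences from all genes were not tested. Summed over the 11 genes the lowest, median and highest bird had 90.8, 366 and 701 TPM in HASI, against 111, 982 and 1958 TPM in HASN, and 93.6, 146 and 643 TPM in LASI, against 308, 746 and 1089 TPM in LASN. Within groups the list's mean had a correlation of 0.75 with the mean of the members over 24 birds.

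In the average over lines, where 38.8% of all tested genes were called lower and 2.33% higher, some markers of other cells were called too. The share called lower was 37.5% of the T cell list, 15.4% of the enterocyte list, 25% of the plasma cell list and 7.69% of the smooth muscle list. None of these shares called lower was above that of all genes. The share called higher was 12.5% of the T cell list, 1 gene of 8, which is above that of all genes. It was 0 in the enterocyte, plasma cell and smooth muscle lists. Of the T cell list, LCK, CD3E and ZAP70 fell and CD28 rose among the 8 tested in the average over lines, and of the enterocyte list MTTP and CDH17 fell among 13. PRDM1 fell among 4 plasma cell markers and PDGFRA among 13 of smooth muscle and fibroblasts. Of 8 B cell and 4 red cell genes 0 were called, with 2 and 0 at an unadjusted p below 0.05 (limma). Of all 13279 tested genes, 6888 had an unadjusted p below 0.05 in the average over lines. Within groups the correlation of these lists with the mean of the members over 24 birds was 0.14 for T cells, 0.14 for enterocytes, 0.44 for B cells, 0.46 for plasma cells, 0.30 for smooth muscle and 0.44 for red cells. Their part in the members' values was not tested.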

How the data were processed

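RNA of 24 jejunum samples was sequenced. The deposited table holds TPM for 15618 genes, 1 column per library, made by the authors. That these are TPM was judged from fractional values with nearly equal column totals. The build is galGal6, per the submitters' processing notes. Aligner, counter and annotation release are not given in the sources used here. Coordinates are those of the table. It holds no read counts, so the depth is unknown and counting error cannot be given.

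The 13279 genes that reached 0.5 TPM in 6 or more libraries were tested as log2(TPM + 1), a scale that understates changes of low genes. One fit of limma 3.58.1 in R 4.3.3 took all 24 libraries with a mean per group, 20 residual degrees of freedom, an intensity trend and robust settings. P-values are two-sided, adjusted over all tested genes by the method of Benjamini and Hochberg, and genes below 0.05 were called. The procedure was run on simulated data, drawn independently for each gene and library. Genes in the real libraries vary together, so that run does not give the error rate of these calls. Of 276 library pairs, 0 were identical. The labels do not say whether birds were housed or sampled together.

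The members, their roles and the gene lists were chosen with earlier results of these data known. Values per bird are given for members called in any contrast, for the member of each role with the smallest p in the average injection effect, and for PCNA, TOP2A, CDK1 and E2F1. Of the other cell cycle genes the rule names the 6 called with the smallest adjusted p. Alternatives were rescaling by median ratios, no filter or one at 1 TPM, a pseudocount of 0.1, a fit of the compared groups alone, a replicate block, the span slope as a covariate, and omission of single libraries. A motif search in promoters was planned and not run. Of the genes most like the members, 1 is not reported here.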

Additional observations from a re-analysis of the deposited data

Results flagged for a closer look

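Within each group, the highest and lowest bird of each member were compared with the other 5 by Dixon's criterion for 6 values. Of 152 combinations tested, the 37 members and their mean in 4 groups, all as log2(TPM + 1), 8 were past the 95% limit. Chance alone flags about 1 in 20, or 7.6. In HASN replicate 5, 5 members stood above the other HASN birds: NUSAP1, a spindle protein, at 30.1 TPM against 13.2 to 13.6 TPM in the others, TOP2A at 39.7 TPM against 17.4 to 22.7 TPM, BUB1B at 18.4 TPM against 7.71 to 10.01 TPM, NDC80 at 12.3 TPM against 2.66 to 4.67 TPM, and RACGAP1 at 16.5 TPM against 4.96 to 7.74 TPM. In LASN replicate 3, KIF4A at 8.49 TPM and TOP2A at 11.8 TPM stood below the other LASN birds, which had 14.7 to 19.6 TPM and 21.2 to 27.4 TPM. TK1 in HASI replicate 5, at 140 TPM, stood above the other HASI birds at 83.0 to 99.0 TPM.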

How the results depend on the processing

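Depth is unknown, so low members such as CCNE2 and TTK carry an unmeasured counting error. Without a low-value filter, with one at 1 TPM, with a pseudocount of 0.1 and with the compared groups alone, each count of members called stayed within 1.5 times that reported. The replicate numbers were not taken to pair birds. The deviations of 17 of 36 same-numbered pairs had a correlation above 0.1, and the own number was the best match in 9 of 36. For replicate 6, however, every pair of groups had a correlation between 0.36 and 0.79. With a replicate block 7 members were called in LASI vs LASN and 8 in the average over lines, beside 39.96% and 48.2% of all genes. That block gave 0 in the other comparisons. With single libraries left out the members called numbered 1 to 8 in LASI vs LASN, 2 to 8 in the average over lines and 0 in all others. The shares of all genes called in those fits are not given here. Rescaling by median ratios moved the members' median log2 fold change in LASI vs LASN to 0.28. Among the 13 members followed one by one through the settings, it turned the sign of some that had not passed: in HASI vs HASN PRC1 (0.080), PCNA (0.16), TOP2A (0.023), E2F1 (0.062) and UHRF1 (0.13), in LASI vs LASN TOP2A (0.30), E2F1 (0.22), UHRF1 (0.021) and NCAPG (0.32), and in the average TOP2A (0.16), E2F1 (0.14), UHRF1 (0.074) and NCAPG (0.079). With the span slope as a covariate 0 members were called in LASI vs LASN and 1 in the average, beside 5.83% and 17.3% of all genes. The sign then turned for PRC1 (0.12) and UHRF1 (0.0013) in HASI vs HASN, for TOP2A (0.026), MCM4 (0.13), UHRF1 (0.050) and NCAPG (0.26) in LASI vs LASN, and for UHRF1 (0.026) in the average. Leaving out single libraries gave -0.43 to 0.032 for PRC1 and -0.27 to 0.060 for UHRF1 in HASI vs HASN, and -0.038 to 0.082 for PCNA in the average. Without HASN replicates 1 to 3, chosen after seeing the data, 12 members were called in HASI vs HASN and 15 in the average, beside 56.7% and 66.2% of all genes, and PCNA stood at -0.00322 in the average. Without HASN replicates 4 to 6, 11 were called in HASN vs LASN, 1 in the average injection effect, 6 in the average line effect and 9 in the interaction, beside 56.9%, 7.57%, 44.7% and 38.4% of all genes. In HASI vs HASN the values then were CCNA2 0.53, FOXM1 0.34, KIF11 0.52, PRC1 0.71, TTK 0.29, MCM4 0.082 and UHRF1 0.41, and UHRF1 was at 0.014 in the average. The cause of these shifts was not tested.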

Other observations

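SMC2, a condensin subunit, is the member on chromosome Z (chrZ:66668700-66692579, galGal6). The sum of 92 chromosome W genes was 7.68 to 27.4 TPM in 11 birds and 1014 to 1330 TPM in the other 13. SMC2 was at 21.1, 28.3 and 52.1 TPM in the lowest, median and highest of the 11 birds, and at 11.5, 17.6 and 35.4 TPM in those of the 13. The ranges overlapped. These sets of birds are not groups of the study and were not a term in any fit.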
